A study of Mus musculus with 6 samples.

Results

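The proteasome is the protease complex that degrades ubiquitin-tagged proteins, and its genes were followed here in LSK cells of mouse bone marrow. These lack lineage markers, carry Sca-1 and c-Kit on their surface (Lin- Sca-1+ c-Kit+), and include the stem cells and early progenitors of blood. Members were all listed genes whose symbol starts with Psma to Psmg and a number, plus Pomp, with pseudogene symbols left out. The rule found 50 of 14455 gene symbols. Of these, 49 are proteasome genes, and the remaining 1, Psmc3ip, matches only by its spelling: it encodes a factor of homologous recombination and stood at 0.629, 0.838, 0.835 and 0.730 scaled FPKM in young KO, young WT, old KO and old WT. It is left out of every count below. All 49 proteasome genes were listed in all 4 libraries, so none of them rests on a missing value.

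There were 4 groups with 1 library each, prepared from 100 ng of total RNA of LSK cells that were sorted from C57BL/6 mice. Young KO cells carried an induced deletion of Setd2, whose product adds the trimethyl mark to lysine 36 of histone H3, and were taken 4 weeks after pI-pC, the double-stranded RNA given to induce the deletion. Young WT cells came from wild-type mice at the same time after pI-pC. Old KO cells were Setd2-deleted and old WT cells wild-type, both taken 8 months after pI-pC. WT mice are thus labelled as given pI-pC too, an agent known to trigger interferon. The labels give neither the Cre driver, nor the number of mice per library, nor their age at injection. Values are FPKM, fragment counts normalised for transcript length and library size, scaled so that the median gene was level across libraries. Differences are on the log2(FPKM + 1) scale. Since no group was replicated, no difference can be given a p-value, and every statement describes these libraries alone. A gene counted as measured in a comparison when either library had a scaled FPKM of at least 1, and was called at a difference of 1.5-fold or 2-fold.

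Several facts of the libraries bear on all values. Setd2 stood at 12.4, 14.1, 15.5 and 15.3 scaled FPKM in young KO, young WT, old KO and old WT, and an FPKM over the whole gene does not check a deletion of single exons. The sort markers Kit, at 52.9, 61.0, 41.1 and 44.5 in the same order, and Ly6a, the Sca-1 gene, at 3.17, 4.86, 4.18 and 8.80, were listed in every library. Xist, which silences an X chromosome in females, was listed in the old libraries only, at 279 in old KO and 291 in old WT, and the Y-linked Ddx3y in the young ones only, at 6.73 in young KO and 5.25 in young WT. Age therefore cannot be told apart from this sex-linked difference. The smallest steps between low values set the precision. For 1 kb of transcript at an FPKM of 20 it corresponded to 181 counted units in young KO, 191 in young WT, 361 in old KO and 357 in old WT, which gives a counting error of 7.44%, 7.23%, 5.26% and 5.29%. How a unit is taken is uncertain, and these errors cover counting alone. In whole cell populations, fewer cells of a type and less RNA per cell cannot be told apart.

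The proteasome is built from a barrel-shaped core and caps that sit on its ends. Outer alpha rings (Psma genes) gate the core, and inner beta rings (Psmb genes) hold 3 kinds of active site. The main cap has a base, with a ring of ATPases (Psmc genes) that unfold substrates, and a lid, which removes the ubiquitin tag. In blood and immune cells the constitutive active subunits Psmb5, Psmb6 and Psmb7 can be replaced by Psmb8, Psmb9 and Psmb10, the interferon-inducible immunoproteasome subunits that favour peptides fit for MHC class I. Psmb8 takes the place of Psmb5, Psmb9 that of Psmb6 and Psmb10 that of Psmb7.

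The start-site windows of the catalytic subunits and of Psme1, an interferon-inducible cap gene, are shown because the comparisons below turn on these genes. Each window runs from 250 bases before to 50 bases after the start, in RefSeq, build GRCm38.p6, 5′ to 3′ on the strand of the gene. Capitals mark matches, on either strand, to TGACNNNGC, the core of the antioxidant response element that Nfe2l1 and Nfe2l2 bind, to CCAAT, to GAAA, any 2 bases and GAAA, the core of the interferon-stimulated response element, and to TTCNNNGAA, the core of the gamma-activated site.
Psmb5, chr14:54617946-54618245, minus strand: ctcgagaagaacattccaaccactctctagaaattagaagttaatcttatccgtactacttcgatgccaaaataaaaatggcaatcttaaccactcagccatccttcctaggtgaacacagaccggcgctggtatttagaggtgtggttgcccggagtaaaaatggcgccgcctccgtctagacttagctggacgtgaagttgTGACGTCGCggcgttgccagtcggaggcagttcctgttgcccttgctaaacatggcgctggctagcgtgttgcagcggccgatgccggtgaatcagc
Psmb6, chr11:70525107-70525406, plus strand: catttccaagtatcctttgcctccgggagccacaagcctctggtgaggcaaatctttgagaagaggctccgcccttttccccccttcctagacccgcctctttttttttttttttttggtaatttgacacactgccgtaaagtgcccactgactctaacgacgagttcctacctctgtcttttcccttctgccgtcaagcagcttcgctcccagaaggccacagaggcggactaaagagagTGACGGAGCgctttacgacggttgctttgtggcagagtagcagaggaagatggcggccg
Psmb8, chr17:34197945-34198244, plus strand: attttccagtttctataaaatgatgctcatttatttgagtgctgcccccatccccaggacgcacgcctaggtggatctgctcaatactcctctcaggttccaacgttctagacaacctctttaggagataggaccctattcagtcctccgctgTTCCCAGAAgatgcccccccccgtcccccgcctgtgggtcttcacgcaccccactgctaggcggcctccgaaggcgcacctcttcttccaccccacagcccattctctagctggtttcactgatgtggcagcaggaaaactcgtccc
Psmb9, chr17:34187281-34187580, minus strand: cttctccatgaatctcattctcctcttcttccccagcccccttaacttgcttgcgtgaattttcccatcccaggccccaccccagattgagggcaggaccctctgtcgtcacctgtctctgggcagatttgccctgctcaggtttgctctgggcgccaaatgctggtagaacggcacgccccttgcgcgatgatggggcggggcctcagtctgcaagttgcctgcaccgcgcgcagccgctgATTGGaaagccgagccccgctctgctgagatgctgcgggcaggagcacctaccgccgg
Psmb10, chr8:105938343-105938642, minus strand: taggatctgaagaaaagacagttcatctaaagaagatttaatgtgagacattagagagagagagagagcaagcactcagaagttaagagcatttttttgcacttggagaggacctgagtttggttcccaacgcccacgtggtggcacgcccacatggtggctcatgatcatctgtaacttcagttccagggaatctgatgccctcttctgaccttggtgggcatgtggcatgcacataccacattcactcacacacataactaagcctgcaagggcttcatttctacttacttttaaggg
Psme1, chr14:55578244-55578543, plus strand: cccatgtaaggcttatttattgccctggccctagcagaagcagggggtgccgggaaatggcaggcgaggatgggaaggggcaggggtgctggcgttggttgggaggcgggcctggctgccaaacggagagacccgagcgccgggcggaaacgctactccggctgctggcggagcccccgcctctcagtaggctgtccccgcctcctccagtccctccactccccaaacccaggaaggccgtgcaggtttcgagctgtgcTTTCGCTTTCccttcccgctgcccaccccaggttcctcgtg
Windows were found for 41 of the 49 genes, and none was at hand for the other 8, Psmb7 among them.

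Among the constitutive genes shown, Psmb5 has TGACGTCGC beginning 47 bases before the start and Psmb6 has TGACGGAGC beginning 9 bases before it. Of the immunoproteasome genes, Psmb8 has TTCCCAGAA beginning 97 bases before the start, Psmb9 has a CCAAT box read on the opposite strand, and Psmb10 holds none of the 4 motifs in these letters. Psme1 has TTTCGCTTTC, the interferon motif read on the opposite strand, beginning 9 bases after its start. The Psmb9 window lies head to head with the start of Tap1, the peptide transporter of the MHC class I pathway, 226 bases away. All these distances are from RefSeq starts, which can differ from the ends of the loci over which FPKM was taken. Those of Psmb9 and Tap1 overlap by 212 bases. Over all 44 member windows, the antioxidant motif was in 6 (13.6%) against 12.4% of the 32851 windows of all genes, and CCAAT in 13 (29.5%) against 37.4%. The interferon motif was in 5 (11.4%) against 3.44%, those of Psmb3, Psmd4, Psmd9, Psme1 and Psmg4, and TTCNNNGAA in 3 (6.82%) against 8.30%. These are matches of letters, and no binding was measured.

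Most proteasome genes stood above the median listed gene of their library: 45 of 49 in young KO, 43 in young WT, 45 in old KO and 44 in old WT. The median over the 49 genes was 16.2 scaled FPKM in young KO, 15.6 in young WT, 19.2 in old KO and 18.6 in old WT. Subunits that sit in the complex in equal numbers did not have equal FPKM. In young KO the 7 usual alpha subunits ran from 6.56 (Psma3) to 48.3 (Psma2), and in young WT from 6.57 (Psma3) to 48.1 (Psma2). The lid ran from 7.71 (Psmd13) to 40.3 (Psmd7) in young KO and from 8.05 to 38.4 for the same genes in young WT. The Psma3 locus overlaps that of 3110056K07Rik by 4733 bases and the Psmd13 locus that of Sirt3 by 342, so their shared reads are uncertain. In the base, Psmd4, a receptor for ubiquitin chains, was lowest and the ATPase gene Psmc6 highest in every library, 6.23 and 63.2 in young KO, 6.45 and 60.1 in young WT, 6.91 and 84.0 in old KO and 6.72 and 66.5 in old WT. The rank order of levels correlated between libraries with Spearman rho of 0.99 for young KO with young WT, 0.98 for old KO with old WT and 0.94 to 0.96 across ages, over 49 genes that share gene length and base composition between libraries. The highest gene was Psme3, the nuclear activator cap subunit, in both young libraries, and Psmb1, a structural beta subunit, in both old ones. The lowest was Psma8, an alternative alpha subunit known from the testis, in 3 libraries, and Psmg3, an assembly chaperone, in old WT.

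**Figure D1:**
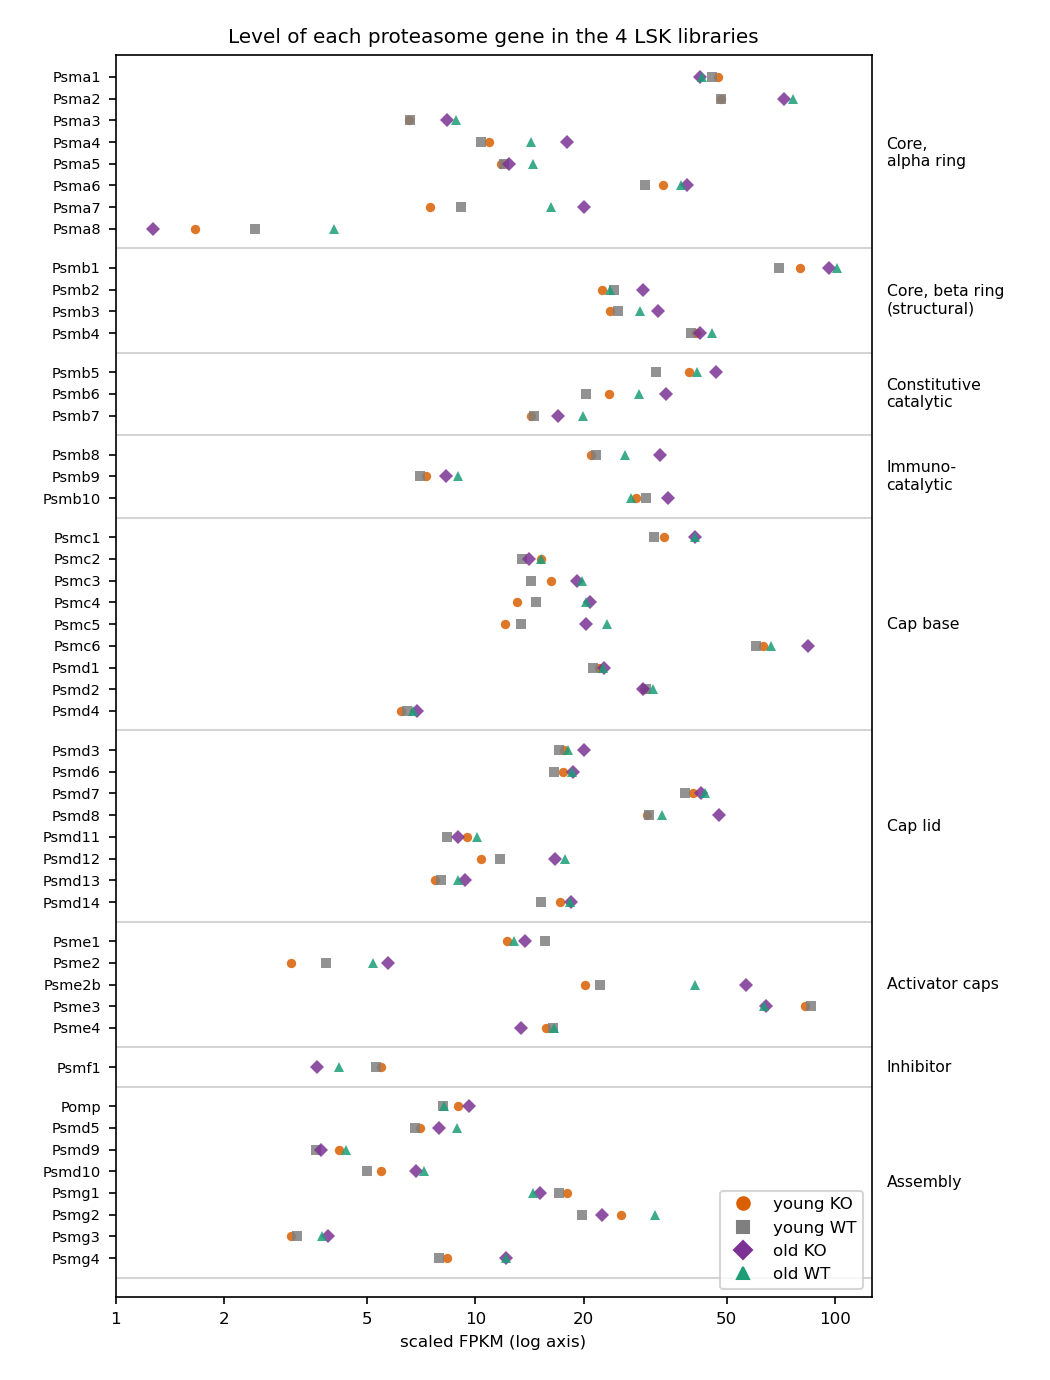
Scaled FPKM (log axis) of the 49 proteasome genes, grouped by role, with 1 symbol per library: young KO, young WT, old KO and old WT. Levels run from 1.27 (Psma8 in old KO) to 101 (Psmb1 in old WT), while the 4 symbols of a gene mostly lie close together; Psma7, Psma8 and Psme2b spread most.

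The first comparison asked how these genes differed with loss of Setd2 in young cells. Differences were small: the median of the 49 was 0.04, their range -0.37 (Psma8) to 0.34 (Psmg2), and 0 of 49 differed by 1.5-fold in either direction, where 7.77% of all 12409 measured genes did. By 2-fold differed 0 of 49, against 1.72% of all genes. No test was possible, so no count at an unadjusted p exists beside these counts of 0. The median absolute difference was 0.07 among proteasome genes and 0.17 among all measured genes. Restricted to genes at a scaled FPKM of 5 or more, it was 0.07 over 45 proteasome genes and 0.15 over 7348 genes, of which 5.88% differed by 1.5-fold. Above 0 lay 27 of the 49, against 50.5% of all genes, and with unscaled FPKM, where the all-gene median was -0.10, 12 did.

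By role, the constitutive catalytic subunits had the highest median in young cells, at 0.20. Psmb5, the chymotrypsin-like subunit (chromosome 14, 54614120 to 54617995, mm10), stood at 39.4 scaled FPKM in young KO and 31.9 in young WT, a difference of 0.29. Psmb6, the caspase-like subunit (chromosome 11, 70525367 to 70527858), stood at 23.5 in young KO and 20.4 in young WT. Psmb7, the trypsin-like subunit (chromosome 2, 38588036 to 38644087), stood at 14.3 in young KO and 14.6 in young WT. Of these 3 only Psmb5 differed by more than its counting interval, a half-width of 0.22 at 1 kb of transcript. Without scaling the Psmb5 difference was smaller and lay within that interval. The immunoproteasome subunits had a median of -0.04. Psmb8 (chromosome 17, 34197721 to 34201454) stood at 20.9 in young KO and 21.6 in young WT, Psmb9 (chromosome 17, 34181988 to 34187764) at 7.32 and 7.04, and Psmb10 (chromosome 8, 105935728 to 105938392) at 28.1 and 29.8, all within counting error.

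All 5 activator cap genes, with Psme2 and its processed copy Psme2b counted apart, lay below 0 in young KO cells. Their median was -0.13, and -0.25 without scaling. These caps open the core without ubiquitin. Psme1 and Psme2 encode the interferon-inducible cap, which stood at 12.3 in young KO and 15.6 in young WT for Psme1 and at 3.08 and 3.85 for Psme2. Psme3 stood at 82.8 in young KO and 85.9 in young WT, and Psme4, the large nuclear cap that recognises acetylated histones, at 15.8 and 16.5. None of the 5 differed by more than its counting interval, the nearest being Psme1 at -0.32 with a half-width of 0.35. This too rests on the scaling, since without it Psme1 and Psme3 lay beyond theirs, both lower in young KO. The inhibitor Psmf1 stood at 5.46 in young KO and 5.30 in young WT.

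Base and lid genes had a median of 0.05 over 17 genes in young cells, none beyond 0.17 in size. The scaffold genes Psmd1 (22.1 in young KO, 21.3 in young WT) and Psmd2 (29.5 and 29.8) and the lid deubiquitinase Psmd14 (17.2 and 15.2) are examples. Of the 8 assembly chaperones 7 lay above 0 in young KO, with a median of 0.09, which was -0.01 without scaling. Pomp, which is consumed as the core matures, stood at 8.93 in young KO and 8.13 in young WT. Psmg2, which pairs with Psmg1 to build the alpha ring, had the highest difference of all members, at 25.4 in young KO and 19.8 in young WT. Over all 49 genes, 3 differed by more than their counting interval in young cells, Psmb1, Psmb5 and Psmg2, each higher in KO, where 9.46% of all measured genes lay beyond theirs in either direction (5.17% higher and 4.29% lower). These calls rest on the scaling. Without it, where the all-gene median was -0.10, all 3 differences were smaller and lay within their intervals. Structural Psmb1 stood at 79.99 in young KO and 70.01 in young WT.

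**Figure D2:**
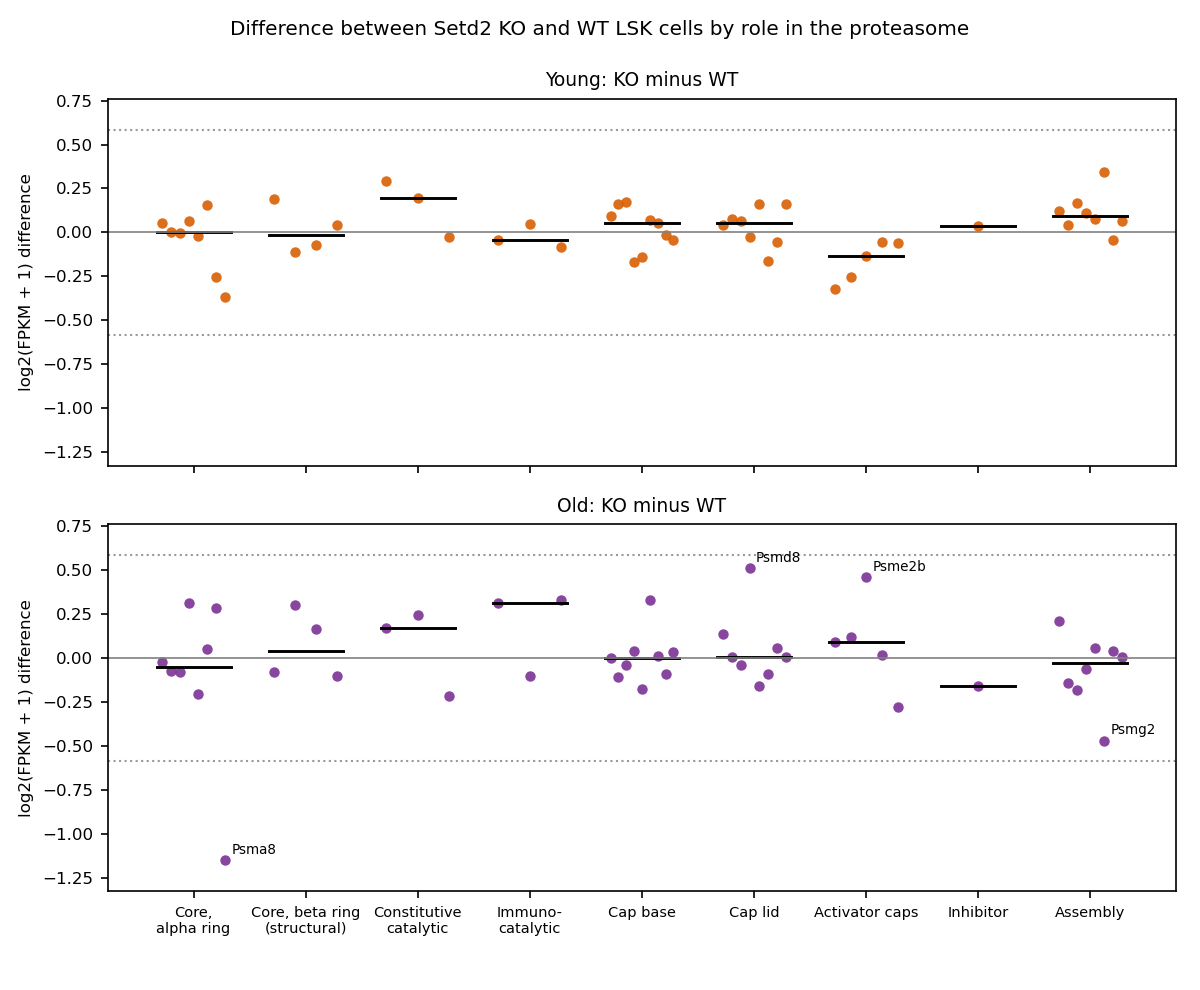
KO minus WT difference on the log2(FPKM + 1) scale for each proteasome gene (points) by role, in young (upper panel) and old cells (lower panel); black bars are group medians and dotted lines mark 1.5-fold. All young points lie between -0.37 and 0.34, and in old cells Psma8, at -1.15, is the only point past the dotted lines.

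In old cells the proteasome genes again centred near 0, with a median of 0.01 over the 49, and were more spread than in young cells. The median absolute difference was 0.11, against 0.19 among all 12478 measured genes. At a scaled FPKM of 5 or more, 0 of 45 proteasome genes differed by 1.5-fold, against 11% of all genes. Of the 49, 1 differed by 1.5-fold and also by 2-fold, where 12% and 4.3% of all genes did. Above 0 lay 26 of the 49, against 50.3% of all genes, and 21 with upper-quartile scaling. Beyond their counting interval lay 13 genes, 10 higher and 3 lower in old KO, where 22.7% of all measured genes lay beyond theirs (13.4% higher and 9.36% lower). The count of 13 is thus near the share of all genes.

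The gene past 2-fold was Psma8 (chromosome 18, 14706151 to 14762299), at 1.27 in old KO and 4.04 in old WT, a difference of -1.15. Its young values were 1.66 in KO and 2.43 in WT, so old WT was the high library. Psma8 is the lowest of the alpha genes in each library and its difference was -0.53 with a pseudocount of 5, below 1.5-fold. The usual alpha subunit at the same place in the ring is Psma7, the closest relative of Psma8, which stood at 20.03 in old KO and 16.3 in old WT. Psma4 stood at 17.9 in old KO and 14.3 in old WT. Both differed by more than their counting interval, at 0.29 and 0.31, and the other 5 alpha genes lay between -0.21 and 0.05.

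The immunoproteasome subunits had the highest median of the groups in old KO cells, at 0.31. Psmb8 stood at 32.7 in old KO and 26.1 in old WT, a difference of 0.31, and Psmb10 at 34.4 and 27.1, a difference of 0.33. Psmb9 stood at 8.28 in old KO and 8.96 in old WT, a difference of -0.10 that lay within its counting interval, so the 3 subunits did not share a direction. The Psmb9 locus overlaps that of its neighbour Tap1 by 212 bases, and the files do not say how shared reads were assigned. Tap1 stood at 10.9 in old KO and 8.56 in old WT, a difference of 0.32. The constitutive subunits Psmb5 (46.5 and 41.2) and Psmb6 (34.0 and 28.6) were higher in old KO as well, by 0.17 and 0.24, while Psmb7 stood at 17.0 in old KO and 19.9 in old WT.

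Because FPKM is per length, the catalytic subunits can be compared with each other inside a library, where scaling has no part. The immunoproteasome genes made up 42.2% of the summed FPKM of the 6 catalytic genes in young KO and 46.6% in young WT, and 43.6% in old KO and 40.9% in old WT. This summed share was thus lower in KO at the young age and higher in KO at the old age, by a few percentage points each. Psmb8 made up 34.7% of Psmb8 plus Psmb5 in young KO and 40.4% in young WT, and 41.3% in old KO and 38.8% in old WT. Psmb9 made up 23.7% of Psmb9 plus Psmb6 in young KO and 25.7% in young WT, and 19.6% in old KO and 23.9% in old WT. Unlike the summed share, that of Psmb9 was lower in KO at both ages. Psmb10 made up 66.3% of Psmb10 plus Psmb7 in young KO and 67.1% in young WT, and 66.9% in old KO and 57.7% in old WT. The Psmb7 locus overlaps that of Nek6 by 6571 bases, so shared reads are as uncertain here as for Psmb9. In every library Psmb10 was thus above its constitutive partner and Psmb8 and Psmb9 below theirs.

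**Figure D3:**
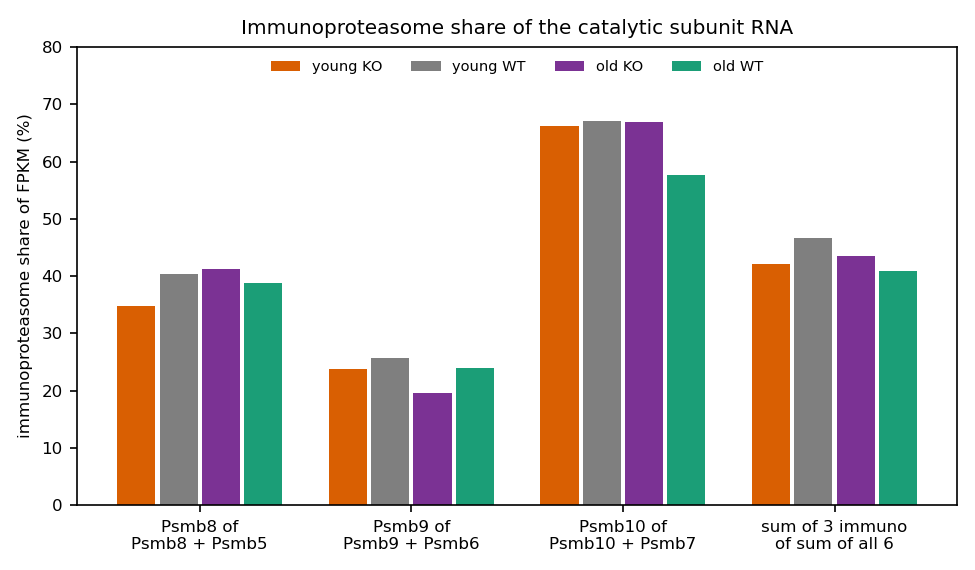
Immunoproteasome share of FPKM (%, axis from 0) for each pair of catalytic subunits and for the sum over the 6 genes, with 1 bar per library in the order young KO, young WT, old KO, old WT. Psmb10 exceeds its partner in every library (57.7% to 67.1%), whereas the Psmb9 share stays between 19.6% and 25.7%.

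Among the caps in old cells, Psme2b had the largest difference. It is a processed copy of Psme2 on chromosome 11 (48945354 to 48946190) that stood at 56.4 in old KO and 40.7 in old WT, a difference of 0.46. Psme2 itself (chromosome 14, 55587441 to 55591113) stood at 5.72 in old KO and 5.18 in old WT. Reads of 2 near-identical genes can be assigned to either, so their split is uncertain. The whole Psme2b locus, 837 bases, also overlaps that of the listed gene Gm12185. Psme1 stood at 13.7 in old KO and 12.8 in old WT and Psme3 at 64.2 and 63.5, both within counting error. Psme4 was lower, at 13.4 in old KO and 16.5 in old WT, a difference of -0.28 with a half-width of 0.25. Psmf1 stood at 3.64 in old KO and 4.18 in old WT.

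The base and lid had a median of 0.01 over 17 genes in old cells, with 2 of them beyond counting error. Psmd8, a lid subunit (chromosome 7, 29174188 to 29180701), had the largest positive difference of all members, at 47.5 in old KO and 33.04 in old WT, and the ATPase gene Psmc6 stood at 84.0 and 66.5. For Psmd8 the old KO library was the high one, since young KO stood at 29.96 and young WT at 30.5. The other 7 lid genes lay between -0.16 and 0.14. Structural Psmb2 stood at 29.3 in old KO and 23.6 in old WT. Of the assembly chaperones 4 of 8 lay above 0, with a median of -0.03. Psmg2 (chromosome 18, 67641599 to 67654162) stood at 22.5 in old KO and 31.5 in old WT, a difference of -0.47, opposite to its difference of 0.34 in young cells. Its partner Psmg1 stood at 15.1 in old KO and 14.5 in old WT, and Pomp at 9.64 and 8.20.

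**Figure D4:**
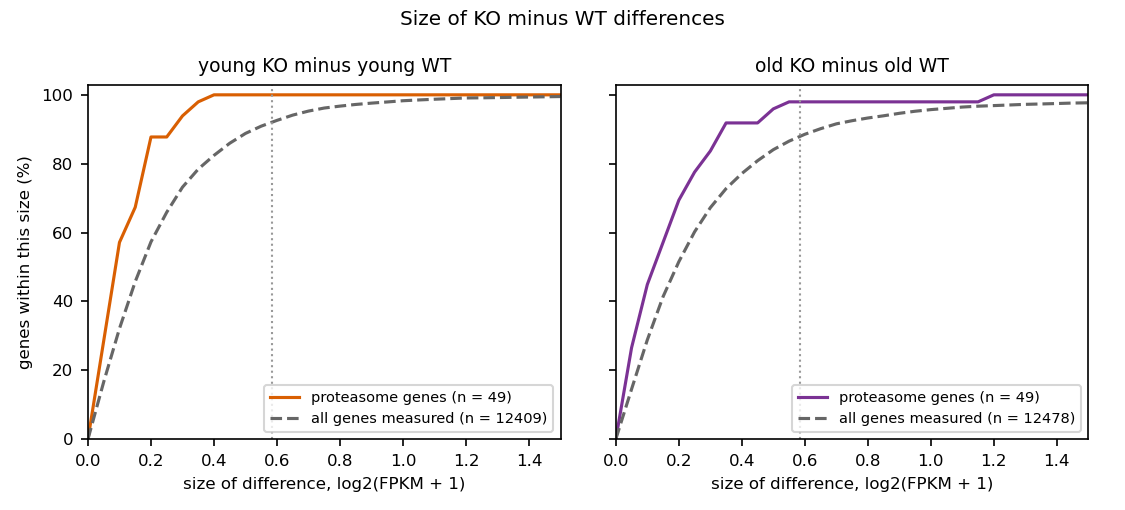
Share of genes (%) whose KO minus WT difference is no larger than the size on the horizontal axis, for the 49 proteasome genes (solid) and all measured genes (dashed), in young (left) and old cells (right); the dotted line marks 1.5-fold. Within 0.20 lie 87.8% of proteasome genes and 57.3% of all genes at the young age, against 69.4% and 51.5% at the old age.

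Genes that work with the proteasome were read from 4 further lists. Lists this short are read beside the shares of all genes that differed by 1.5-fold, 7.77% in young and 12% in old cells, at which 0 or 1 called gene sets no list apart. Of 9 other proteasome-bound genes found, 0 differed by 1.5-fold at either age. Examples are the deubiquitinase Usp14, at 15.1 in young KO and 15.9 in young WT, and 13.3 in old KO and 12.5 in old WT, and the lid subunit gene Shfm1, at 5.42 and 5.49 and at 12.8 and 9.22. Of 14 ubiquitin and shuttle genes 0 differed by 1.5-fold at either age, with a median of 0.02 in young cells and one of 0.05 at the old age. As for the members, no test was possible beside these counts of 0. Of 10 regulators, 1 differed by 1.5-fold in each comparison, near the share of all genes, and these are given as single values.

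In young cells this was Nfe2l1, the transcription factor known to raise proteasome genes when proteasome activity is limiting, at 2.09 in young KO and 7.495 in young WT, a difference of -1.46. It stood at 2.95 in old KO and 2.71 in old WT, so young WT was the high library. Its relative Nfe2l2 stood at 15.6 in young KO and 17.2 in young WT. Ddi2, the protease that activates Nfe2l1, stood at 18.2 in young KO and 14.9 in young WT. The 6 members whose start-site windows hold the antioxidant motif, Psmb5, Psmb6, Psmc6, Psmd9, Psmd12 and Psme4, had a median difference of 0.12 in young cells, and the other 35 with a window one of 0.00. Of the 6, 2 lay below 0 in young cells, as did 17 of the 35. At the old age the 2 medians were 0.04 and 0.01. In old cells the regulator past 1.5-fold was Nfya, a subunit of the factor that binds CCAAT, at 7.23 in old KO and 12.4 in old WT. The 13 members with CCAAT in their window had a median of -0.00 in old cells and the other 28 one of 0.04. At the young age these were 0.05 and 0.01. The part of these regulators and motifs in the differences of the proteasome genes was not tested.

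The MHC class I pathway, which uses the peptides that proteasomes make, lay slightly below 0 in young and above 0 in old KO cells. Of its 15 genes 3 lay above 0 in young cells, at a median of -0.07, and 14 did in old cells, at a median of 0.22. Of the 15, 0 differed by 1.5-fold in young cells, against 7.77% of all genes, and 1 did in old cells, against 12%. This was Ciita, best known as the transactivator of MHC class II genes, at 1.80 in old KO and 0.824 in old WT. B2m, the invariant chain of MHC class I, stood at 439 in old KO and 351 in old WT.

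Lists of lineage markers differed along with Psmb8 and Psmb10 in old cells. The 12 neutrophil markers, all listed in both libraries, summed to 1838 scaled FPKM in old KO and 971 in old WT. Elane, at 799 in old KO and 491 in old WT, and Mpo, at 603 and 373, were the largest parts of both sums. All 12 lay above 0, Camp among them at 40.8 in old KO and 2.86 in old WT. The 11 monocyte and macrophage markers summed to 397 in old KO and 95.3 in old WT, with 11 listed in old KO and 10 in old WT. F13a1, at 171 in old KO and 35.2 in old WT, was the largest part of both sums. Of the 11, 10 lay above 0, and 1 went the other way, C1qa, at 0.924 in old KO and 3.29 in old WT. The 10 plasma cell markers ran the other way, at 211 in old KO with 9 listed and 2212 in old WT with 10 listed, Ccr10 being listed in old WT only. All 10 lay below 0, and Jchain, at 141 in old KO and 1891 in old WT, made up most of both sums. The 22 interferon-stimulated genes summed to 166 in old KO and 85.9 in old WT, with 22 and 19 listed, and all 21 measured in the comparison lay above 0, at a median of 0.72. Erythroid markers, 15 of 15 listed in every library, summed to 839.5 in young KO and 381 in young WT, and to 258 in old KO and 356 in old WT. All 15 lay above 0 in young KO, whereas in old KO the list split, with 7 above 0, the globin gene Hbb-bs among them at 28.1 in old KO and 12.2 in old WT, and 8 below 0, Car1 among them at 52.6 and 123. The part of these cells and of interferon in the differences of the proteasome genes was not tested.

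Old and young libraries were then set side by side. These comparisons use the same libraries as those above. Most proteasome genes were higher in old cells: 38 of 49 lay above 0 in KO, with a median of 0.23, and 42 of 49 in WT, with a median of 0.25. Of all measured genes, 49.8% lay above 0 in KO and 49.2% in WT. In KO 9 of 49 were higher by 1.5-fold, against 12.4% of all genes, and in WT 5 of 49, against 9.93%. By 2-fold, 2 were higher in KO, Psma7 and Psme2b, against 4.95% of all genes, and 0 in WT, against 4.22%. None was lower by 1.5-fold in either genotype, against 8.01% of all genes in KO and 5.88% in WT. These age differences were smaller with upper-quartile scaling, where 31 genes lay above 0 in KO and 37 in WT, at medians of 0.12 and 0.17, and the median of all genes lay at -0.10 and -0.08. Without scaling 38 lay above 0 in KO and 36 in WT.

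The core had a median of 0.27 over 18 genes in KO and 0.34 in WT, against 0.17 in KO and 0.16 in WT over the 17 base and lid genes. Within the base, the 6 ATPase genes had medians of 0.34 in KO and 0.40 in WT, which lay above those of the core. Psma7 stood at 20.03 in old KO against 7.48 in young KO and at 16.3 in old WT against 9.10 in young WT. Psma2 stood at 72.2 in old KO against 48.3 in young KO and at 76.3 in old WT against 48.1 in young WT. In the base, the ATPase gene Psmc5 stood at 20.3 in old KO against 12.1 in young KO and at 23.2 in old WT against 13.4 in young WT. In the lid, Psmd12 stood at 16.6 in old KO against 10.4 in young KO and at 17.8 in old WT against 11.7 in young WT. Psme2b was again the extreme, at 56.4 in old KO against 20.2 in young KO and at 40.7 in old WT against 22.3 in young WT. The limits on its reads given above hold here too.

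A few genes went the other way. Psme3 stood at 64.2 in old KO against 82.8 in young KO and at 63.5 in old WT against 85.9 in young WT, differences of -0.36 and -0.43, beyond its counting interval in both. The inhibitor Psmf1, at -0.48 in KO and -0.28 in WT, and the chaperone Psmg1, at -0.24 and -0.22, were lower in old cells within counting error. Cytoplasmic ribosomal protein genes, a list chosen after the data were seen, were higher in old cells too, with 66 of 77 above 0 and a median of 0.54 in KO, and 64 of 76 and 0.49 in WT. Lineage markers differed with age as well. Neutrophil markers summed to 1838 in old KO against 706 in young KO, with all 12 above 0. In WT they summed to 971 in old against 759 in young cells, with 9 of 10 measured above 0. Mpo and Elane were the largest parts of each sum, and 7 of the 12 were listed in young KO and 6 in young WT. Monocyte and macrophage markers summed to 397 in old KO against 80.9 in young KO, with all 10 measured above 0. In WT they summed to 95.3 in old against 89.1 in young cells, but 7 of 11 lay below 0, at a median of -0.09. There F13a1 stood at 35.2 in old WT against 15.7 in young WT, and Ccr2 at 1.64 against 9.88. Plasma cell markers summed to 211 in old KO against 61.9 in young KO and to 2212 in old WT against 45.6 in young WT, where all 10 lay above 0 at a median of 3.36. Erythroid markers summed to 258 in old KO against 839.5 in young KO, with all 15 below 0. In WT they summed to 356 in old against 381 in young cells, and the list split. There 8 lay above 0, Car1 among them at 123 in old WT against 72.4 in young WT. Below 0 lay 7, Hbb-bt among them at 5.51 in old WT against 52.2 in young WT. The part of these genes and cells in the age differences of the proteasome genes was not tested.

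**Figure D5:**
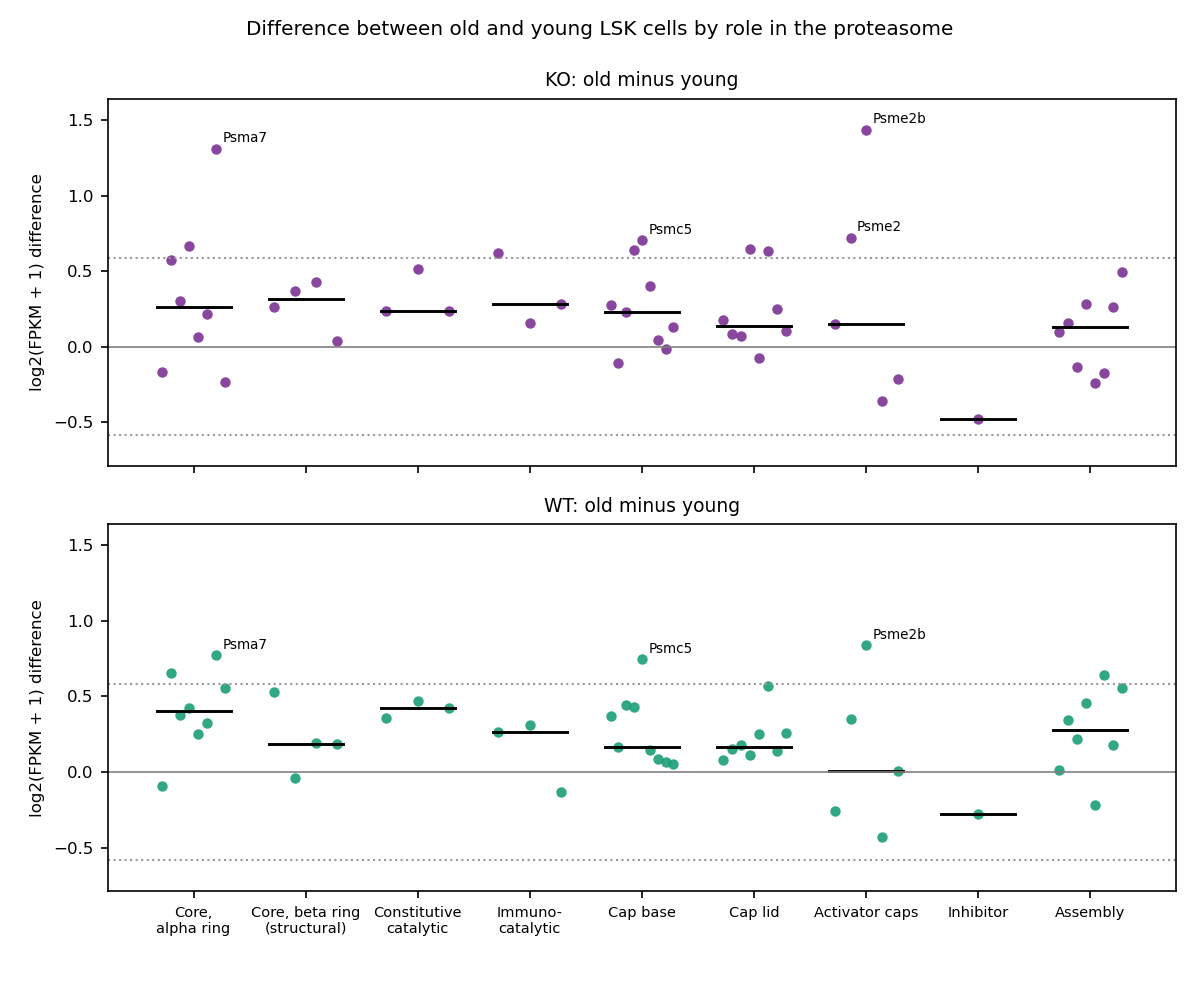
Old minus young difference on the log2(FPKM + 1) scale for each proteasome gene (points) by role, in KO (upper panel) and WT cells (lower panel); black bars are group medians and dotted lines mark 1.5-fold. Most points lie above 0, led by Psme2b and Psma7, while Psme3 and Psmf1 lie below 0 in both panels.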

How the data were processed

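RNA was measured in 4 libraries of LSK cells, 1 per group. The 2 bisulfite sequencing samples were not analysed here. Per the file headers, the deposited value is 1 FPKM per gene. Tools named in the submitters' processing notes are mm10 (GRCm38), CASAVA, FastQC, Trimmomatic, HISAT2 2.0.4, StringTie 1.3.0 and Bismark, with no role or order. How strand was used is not stated in the sources read. Each file lists only genes at 0.5 FPKM or more, and a gene a file did not list was set to 0.5. Of 14468 identifiers, 14382 matched a table of names, 18 symbols turned into dates were restored, and rows of 13 repeated symbols were summed.

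Libraries were multiplied by median-of-ratios factors over 10935 genes at 1 or more in all 4, which were 1.02 for young KO, 0.940 for young WT, 1.02 for old KO and 1.02 for old WT. Differences used a pseudocount of 1, which understates the change of low genes. Steps ran in Python 3.11.15, numpy 2.4.6 and pandas 2.3.3 and were tested on simulated data. No test across samples was possible.

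Counting errors came from the step between low values of loci under 1.5 kb, where 61.5% to 72.6% of values lay within 0.02 steps of a whole multiple and chance gives 4%. A unit was 0.111, 0.104, 0.0554 and 0.0560 FPKM times kb in young KO, young WT, old KO and old WT. Transcript length is not in the files, so 95% intervals assume 1 kb.

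Named genes followed a rule: the catalytic subunits, caps, Psmf1, Pomp, members past 1.5-fold, the 3 highest and lowest differences of each KO comparison, and the extremes of each role; other members and list genes named were chosen after their values were seen. Members and lists were chosen with earlier results of these data known.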

Additional observations from a re-analysis of the deposited data

Results flagged for a closer look

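Psmg2, a chaperone of alpha ring assembly, differed in opposite directions at the 2 ages, by 0.34 in young KO against young WT and by -0.47 in old KO against old WT, each beyond its counting interval at 1 kb of transcript (half-widths of 0.27 and 0.19). It was the only 1 of the 49 proteasome genes to do so, and the share of all measured genes that did so was not counted. Beyond their interval in either direction lay 9.46% of all measured genes in young cells and 22.7% in old cells. Without scaling the young Psmg2 difference was smaller and lay within its interval. Each side of the Psmg2 result rests on 1 library per group, and the difference between the ages was not tested.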

How the results depend on the processing

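Of 408 results recomputed for the medians, counts and shares under other settings, 367 stayed within 0.10 (log2), 1.5 times the count or 5 percentage points, and 41 moved. A single gene counted as moved only when its difference shifted by more than its counting half-width, a wide margin for low genes. By this rule 1 of 1906 recomputed single-gene differences moved, Psme2 in old against young KO (1.38 with Psme2b added). No difference past 1.5-fold changed sign. Psma8 in old KO against old WT fell from -1.15 to -0.53 with a pseudocount of 5. It still counted as not moved, at a half-width of 0.68. The old-against-young settings, the sum of Psme2 and Psme2b and the removal of 9 genes with overlapping loci were chosen after seeing the data. No paired analysis was possible because each group has 1 library, and for the same reason no library could be left out.

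Without scaling, young KO medians were -0.070 over all proteasome genes, -0.11 in the core, -0.059 in base and lid, 0.086 for constitutive and -0.16 for immunoproteasome subunits, -0.25 for activator caps and -0.012 for assembly chaperones, with 12 genes above 0. Old against young WT then gave 0.14, 0.23, 0.057, 0.32, 0.15 and -0.10 for the same groups except chaperones, with 3 genes past 1.5-fold. With upper-quartile scaling, old against young KO gave 0.12, 0.16, 0.069, 0.13, 0.18 and 0.048 for the same groups, with 4 genes past 1.5-fold, and WT had 3. A pseudocount of 0.1 gave 8 such genes in WT. A pseudocount of 5 gave 3 in KO and a chaperone median of 0.18 in WT. In old KO against old WT, a pseudocount of 5 and a minimum of 5 each left 0 genes past 1.5-fold and 0 past 2-fold, since Psma8 is low, and the minimum of 5 gave an old-against-young chaperone median of 0.40 in WT. With Psme2 and Psme2b summed, the cap medians of old against young were -0.033 in KO and -0.13 in WT. Without the 9 overlapping genes the core median was 0.16 in old KO against old WT. Old against young KO then gave 0.38 for constitutive and 0.45 for immunoproteasome subunits, -0.22 for caps and 1 gene past 2-fold, and old against young WT gave 0.066 for immunoproteasome subunits. The median of the 3 paired shares gave an immunoproteasome share of 34.7% in young KO and 40.4% in young WT.

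Depth limits the low genes most: at 1 kb the median half-width of a counting interval was 0.32 in young and 0.22 in old KO comparisons.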
